A study of Mus musculus with 12 samples.

Results

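A set of 9 genes of the complement system was described in the contused spinal cord of mice: C1qa, C1qb, C1qc, C3, Cfb, C3ar1, C5ar1, Masp1 and Masp2. They were chosen by gene symbol in the array platform's annotation, and 8 of the 9 had a probe set with exactly 1 gene symbol in it, the kind used here, among 19938 genes in all. C3 was not analysed here. Each of the 8 measured genes had 1 probe set, and its log2 intensity, as the authors deposited it, is the level given below. Expression was measured on 12 whole-transcript arrays, 4 from mice lacking interleukin-1 alpha (Il1a KO), 4 from mice lacking interleukin-1 beta (Il1b KO) and 4 from wild-type mice (C57BL/6). All 3 groups were labelled as C57BL/6 background, were 8 to 12 weeks old, received a contusion of 50 kdyn and gave a segment of 6 mm around the lesion 24 h later, so uninjured cord was not compared and an effect of injury itself is not described. The labels call the arrays biological replicates and name no animals, so each p measures the spread between these arrays.

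Complement is a cascade of plasma and tissue proteins that tags debris and pathogens and recruits phagocytes. C1q, built from the chains A, B and C, starts the classical pathway, and the lectin pathway is started by sugar-binding proteins that carry the proteases MASP-1 and MASP-2. All routes converge on cleavage of C3, which factor B amplifies in the alternative pathway, and the released fragments C3a and C5a act on the receptors C3aR1 and C5aR1. In nervous tissue C1q comes mainly from microglia and macrophages, C5aR1 is abundant on neutrophils and other myeloid cells, and MASP-2 is best known as a product of the liver.

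Among the 8 measured genes, Masp2 was the single gene whose level differed between genotypes past the threshold, an adjusted p of 0.05 over all genes in limma. It rose 1.91-fold in the Il1b KO, while its means in the Il1a KO and wild type differed by less than the spread between arrays. Its mean level over all arrays stood at percentile 33.6 of all genes, so Masp2 was among the dimmer genes. In the Il1b KO 1 of the 8 genes passed against wild type, where 0.813% of all 19938 genes did, and between the knockouts 1 of the 8 passed, where 0.652% did. In the Il1a KO 0 of the 8 passed against wild type by limma, with 0 at an unadjusted p under 0.05, where 0.171% of all genes passed and 8.32% had such a p. The 3 C1q chains, both receptors and Masp1 had group means within 0.16 of each other on the log2 scale. Cfb was lower in every Il1b KO array than in every other array, with a log2 fold change of -0.19 against wild type that did not pass.

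The labels were checked on the targeted genes. Il1b averaged 6.42 ± 0.183 in the Il1b KO and 7.83 ± 0.161 in wild type (SD, n = 4 each), and Il1a averaged 4.97 ± 0.0749 in the Il1a KO and 5.87 ± 0.232 in wild type (SD, n = 4 each). Both were lower in their own knockout by limma (adjusted p = 2.64e-06 and 0.00372), and the Il1b KO had lower Il1a as well (mean 5.10, adjusted p = 0.00390). Array medians over all genes lay between 8.16 and 8.20. Il1a KO replicate 1 alone had low Xist (6.47) and high Eif2s3y (9.15), so it differed from the other 11 arrays in sex-linked genes. The tissue label was checked on markers: the mean over 8 neuron markers lay between 11.75 and 11.83 in all arrays. The mean over 6 oligodendrocyte markers was 11.91 to 12.03 in the Il1a KO, 11.84 to 11.97 in the Il1b KO and 11.75 to 11.84 in wild type. All 6 had a positive log2 fold change against wild type in both knockouts, with no call.

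**Figure D1:**
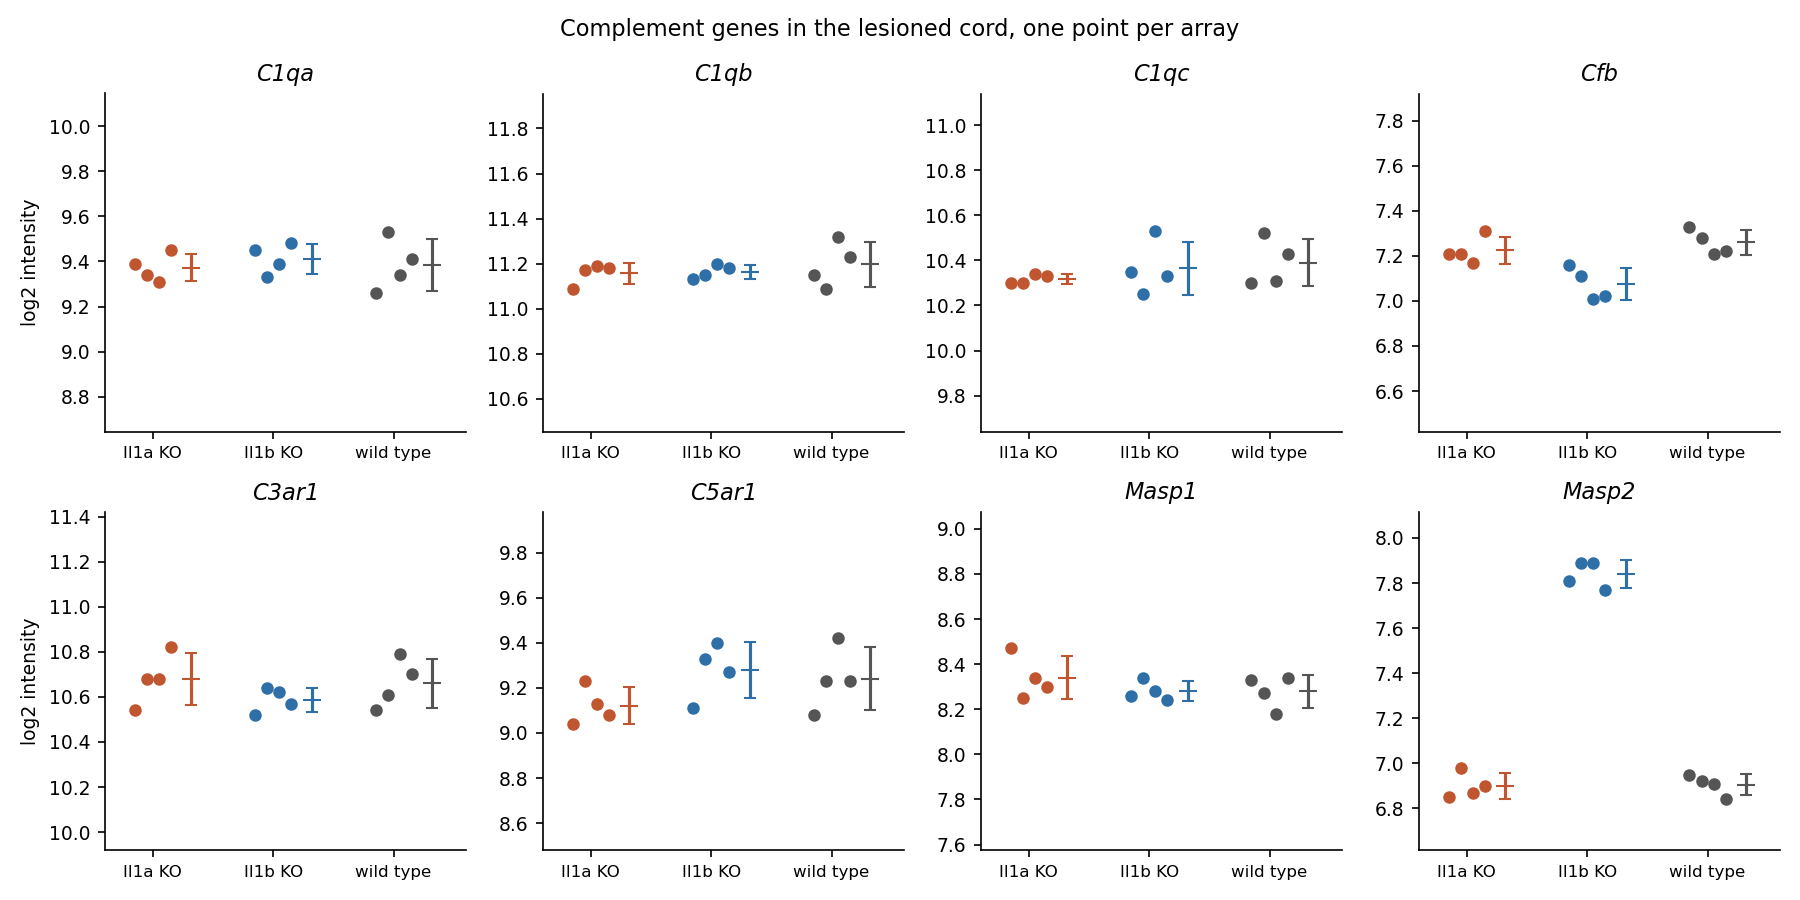
Log2 intensity (y axis, each panel spanning the same range of 1.5 log2 units) of the 8 measured complement genes in 4 arrays each of the Il1a KO, the Il1b KO and wild type; each point is an array, and the bar beside the points is the mean with its SD. Masp2 in the Il1b KO (7.77 to 7.89) is the only set of points clear of the others by more than the width of a group, and Cfb in the Il1b KO (7.01 to 7.16) lies just under the rest.

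C1qa encodes the A chain of C1q. Its level was 9.39, 9.34, 9.31 and 9.45 in the 4 Il1a KO arrays, 9.45, 9.33, 9.39 and 9.48 in the Il1b KO arrays and 9.26, 9.53, 9.34 and 9.41 in the wild-type arrays. The 3 groups overlapped throughout, and the wild-type arrays held both the lowest and the highest value. The log2 fold change was -0.01 (95% interval -0.14 to 0.11, limma adjusted p = 0.992) in the Il1a KO and 0.03 (-0.10 to 0.15, adjusted p = 0.882) in the Il1b KO.

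C1qb encodes the B chain. Its level was 11.09, 11.17, 11.19 and 11.18 in the Il1a KO, 11.13, 11.15, 11.20 and 11.18 in the Il1b KO and 11.15, 11.09, 11.32 and 11.23 in wild type. The groups overlapped, with the 2 highest arrays both wild type. The spread was wider in wild type, as the SD was 0.0494 in the Il1a KO, 0.0330 in the Il1b KO and 0.10 in wild type (n = 4 each). Against wild type the log2 fold change was -0.04 (95% interval -0.15 to 0.07) in the Il1a KO and -0.03 (-0.14 to 0.08) in the Il1b KO, with limma adjusted p of 0.927 and 0.841.

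C1qc encodes the C chain. Its level was 10.30, 10.30, 10.34 and 10.33 in the Il1a KO, 10.35, 10.25, 10.53 and 10.33 in the Il1b KO and 10.30, 10.52, 10.31 and 10.43 in wild type. The groups overlapped, and the Il1a KO arrays were the most alike. The log2 fold change was -0.07 (95% interval -0.21 to 0.06, limma adjusted p = 0.857) in the Il1a KO and -0.02 (-0.16 to 0.11, adjusted p = 0.905) in the Il1b KO.

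For each C1q chain the order of the 3 group means was therefore within the spread between arrays, and the direct difference between the knockouts did not pass either (log2 differences, Il1a KO minus Il1b KO, of -0.04, -0.01 and -0.05 for the A, B and C chain genes, limma adjusted p 0.918, 0.982 and 0.901). The microglia marker list, 9 of 10 named genes measured, had a mean level of 8.59 to 8.70 in the Il1a KO, 8.51 to 8.60 in the Il1b KO and 8.47 to 8.66 in wild type. Counted by sign alone, 5 of the 9 had a negative log2 fold change against wild type in the Il1a KO and 8 of the 9 in the Il1b KO, with no call. Of the 9, 1 passed as higher in the Il1a KO than in the Il1b KO, where 0.652% of all genes passed in either direction. The part of these markers in the levels of the C1q genes was not tested. In a bulk sample fewer cells of a type and less RNA per cell cannot be told apart.

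The 3 C1q genes lie side by side on mouse chromosome 4 (GRCm38.p6), C1qb at chr4:136880126-136886200, C1qc at chr4:136889801-136892936 and C1qa at chr4:136895916-136898844. Across the 12 arrays no pair of them had a correlation that passed. Pearson's r was 0.516 between C1qa and C1qc (Spearman's rho 0.503, permutation p = 0.0891 and 0.0977), -0.307 between C1qa and C1qb (rho -0.196, permutation p = 0.337 and 0.543) and -0.0407 between C1qb and C1qc (rho 0.294, permutation p = 0.898 and 0.355). Adjusted over 28 pairs, the permutation p of r was 0.357, 0.798 and 0.931 for these pairs. Without the 2 arrays farthest from the median of C1qa, its r with C1qc was 0.239. Of all 28 pairs among the 8 genes, 0 had an adjusted permutation p under 0.05 (Benjamini-Hochberg over the 28 pairs). The pair C1qb and C3ar1 had r = 0.669 and rho = 0.748 (permutation p = 0.0159 and 0.00685, adjusted p = 0.223 and 0.192), with r = 0.762 once genotype means were removed and 0.448 without the 2 arrays farthest from the median of C1qb. Cfb and Masp2 fell into clusters by genotype, so no pooled r is given for them, and with genotype means removed their r was 0.225. The genes with the highest Pearson r over the 12 arrays to the mean of the 3 C1q genes were Lum (0.900), Smn1 (0.898) and Skap2 (0.897), given as a description of arrays that share their genotypes and their normalization. They were picked as the highest of all genes, with no test, so these values do not show a link to C1q.

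The promoters of C1qb and C1qc are shown because these are the adjoining genes of 1 protein for which a promoter was listed, beside that of Masp2, the gene that differed. Each is the 250 bases before the listed RefSeq start (GRCm38.p6), read 5′ to 3′ on the strand of the gene. The start listed for C1qc lies inside the annotated span of that gene, so the last bases of its stretch fall within the span. The whole Masp2 stretch lies inside the span of Masp2, which begins at chr4:148594622. It therefore precedes a start within the gene, and the bases before the span are not shown. Capitals mark matches on either strand to GAGGAA, the core bound by the myeloid factor PU.1, or to GGG followed, after 5 bases of any kind, by CC, a loose form of the site of NF-kB, the factor through which interleukin-1 acts on many genes.
C1qb, chr4:136886201-136886450, minus strand: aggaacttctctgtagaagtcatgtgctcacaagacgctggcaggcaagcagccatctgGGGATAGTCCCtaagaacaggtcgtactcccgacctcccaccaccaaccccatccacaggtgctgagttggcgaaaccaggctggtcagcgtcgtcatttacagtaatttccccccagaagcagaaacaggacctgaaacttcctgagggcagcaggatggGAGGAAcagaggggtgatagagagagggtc
C1qc, chr4:136892915-136893164, minus strand: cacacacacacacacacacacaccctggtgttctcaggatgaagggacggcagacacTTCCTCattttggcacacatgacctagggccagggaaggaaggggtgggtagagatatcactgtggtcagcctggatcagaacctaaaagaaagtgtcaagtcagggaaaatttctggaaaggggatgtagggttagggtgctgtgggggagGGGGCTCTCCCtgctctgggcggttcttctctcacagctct
Masp2, chr4:148602294-148602543, plus strand: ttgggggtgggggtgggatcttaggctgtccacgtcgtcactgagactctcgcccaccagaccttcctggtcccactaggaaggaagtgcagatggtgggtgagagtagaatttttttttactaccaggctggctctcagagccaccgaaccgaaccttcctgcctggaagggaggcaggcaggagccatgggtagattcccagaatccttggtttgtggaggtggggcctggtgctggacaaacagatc
GAGGAA was matched 1 time in the C1qb promoter, 25 to 30 bases before the start, and 1 time in the C1qc promoter, 188 to 193 bases before the start on the opposite strand. The NF-kB form was matched in both by 2 overlapping frames of a single stretch. Neither motif was found in the 250 bases of Masp2, which lie within the gene and do not cover the bases before its span. GAGGAA occurs in 23.3% and the NF-kB form in 45.8% of the 32851 promoters of this length in the table, so a match is common and only describes these letters.

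Masp2 encodes MASP-2, the protease that cleaves C4 and C2 to start the lectin pathway. Its level was 6.85, 6.98, 6.87 and 6.90 in the 4 Il1a KO arrays, 7.81, 7.89, 7.89 and 7.77 in the Il1b KO arrays and 6.95, 6.92, 6.91 and 6.84 in the wild-type arrays. Every Il1b KO array was higher than every other array, with a gap wider than the range within any group, while the Il1a KO and wild type overlapped. The mean was 7.84 ± 0.0583 in the Il1b KO and 6.91 ± 0.0494 in wild type (SD, n = 4 each), a log2 fold change of 0.94 (95% interval 0.84 to 1.03, SE 0.0439, limma adjusted p = 6.91e-08). In the Il1a KO the mean was 6.90 ± 0.0551 (SD, n = 4) and the log2 fold change against wild type was -0.01 (95% interval -0.10 to 0.09, adjusted p = 0.997). The direct comparison gave a log2 difference of -0.94 for the Il1a KO minus the Il1b KO (95% interval -1.04 to -0.85, limma adjusted p = 8.00e-08), so the change in the Il1b KO differed from that in the Il1a KO by a test of the difference itself.

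Masp2 ranked 5th by p among all genes in the Il1b KO comparison and 4th between the knockouts. Without Il1a KO replicate 1, the array that differed in sex-linked genes, its log2 fold change was 0.94 in the Il1b KO, 0.01 in the Il1a KO and -0.93 between the knockouts (limma adjusted p = 2.90e-07, 0.998 and 1.16e-06).

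**Figure D2:**
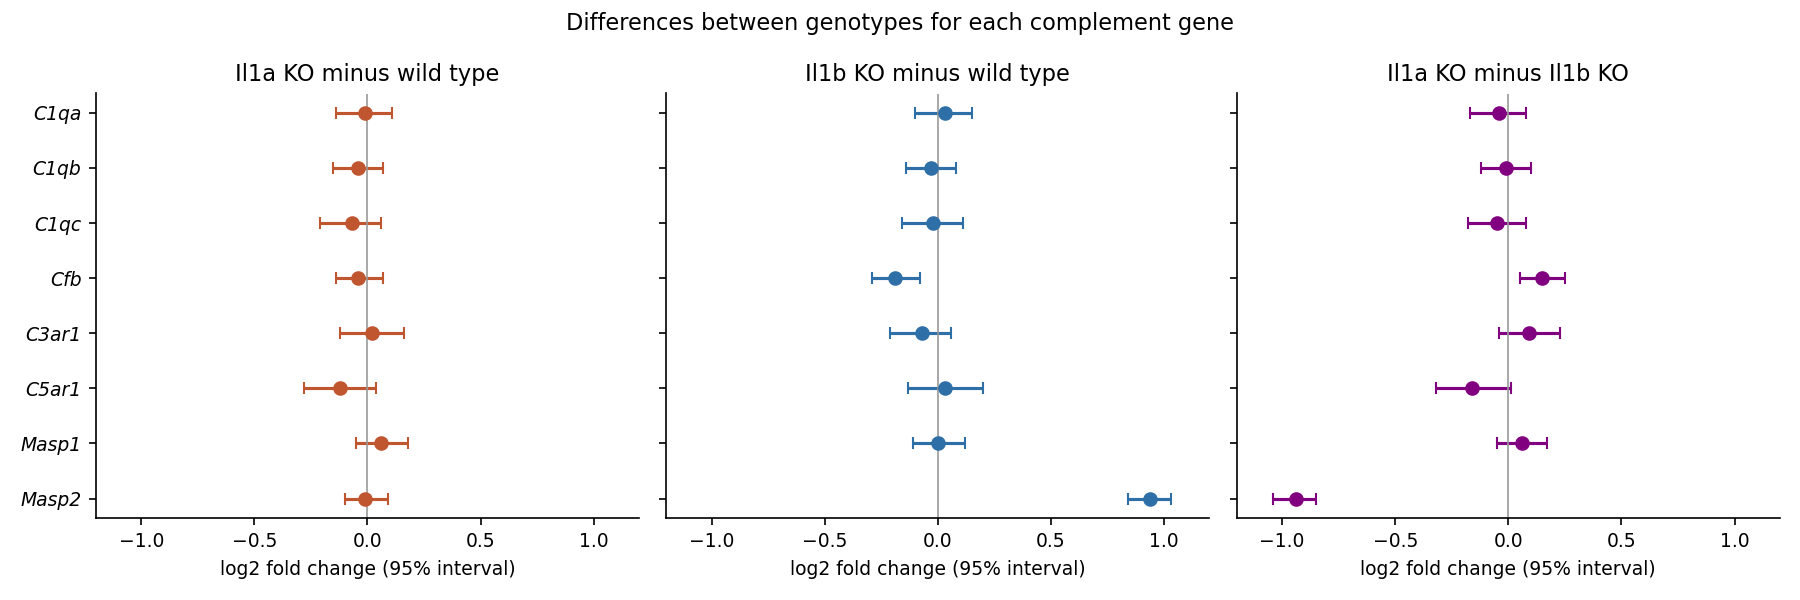
Log2 fold change (x axis) with its 95% interval for the 8 measured complement genes (y axis) with 1 panel for each knockout over wild type and 1 for the difference between the knockouts (Il1a KO minus Il1b KO). Masp2 stands at 0.94 in the Il1b KO and at -0.94 between the knockouts, and the intervals of Cfb are the only others that leave out 0 (-0.29 to -0.08 in the Il1b KO).

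Masp2 lies on the same chromosome as the C1q genes, at chr4:148594622-148615499 (GRCm38.p6), 11.7 Mb from C1qa. The targeted genes lie on another chromosome, Il1a at chr2:129299609-129310186 and Il1b at chr2:129364569-129371164. Of the 20 measured genes nearest in order, 10 on each side and starting at -496.2 to 733.8 kb relative to the start of Masp2, 0 passed in the Il1a KO, 0 in the Il1b KO and 0 between the knockouts by limma. Their log2 fold changes ran from -0.18 to 0.13 in the Il1a KO and from -0.10 to 0.13 in the Il1b KO. In the Il1b KO the highest were Mtor (0.13) and Fbxo44 (0.12), with limma adjusted p of 0.121 and 0.259. The lowest there was Gm572 (-0.10, adjusted p = 0.592), and the median of the 20 was -0.00543. Srm, the spermidine synthase gene that ends just before Masp2 begins, was at -0.01 in the Il1b KO (adjusted p = 0.957). Tardbp, the gene of the RNA-binding protein TDP-43, shares 3118 bases of its span with the end of Masp2 and was at 0.05 in the Il1b KO (adjusted p = 0.753). The place of the Masp2 probes within the gene is not given in these sources.

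**Figure D3:**
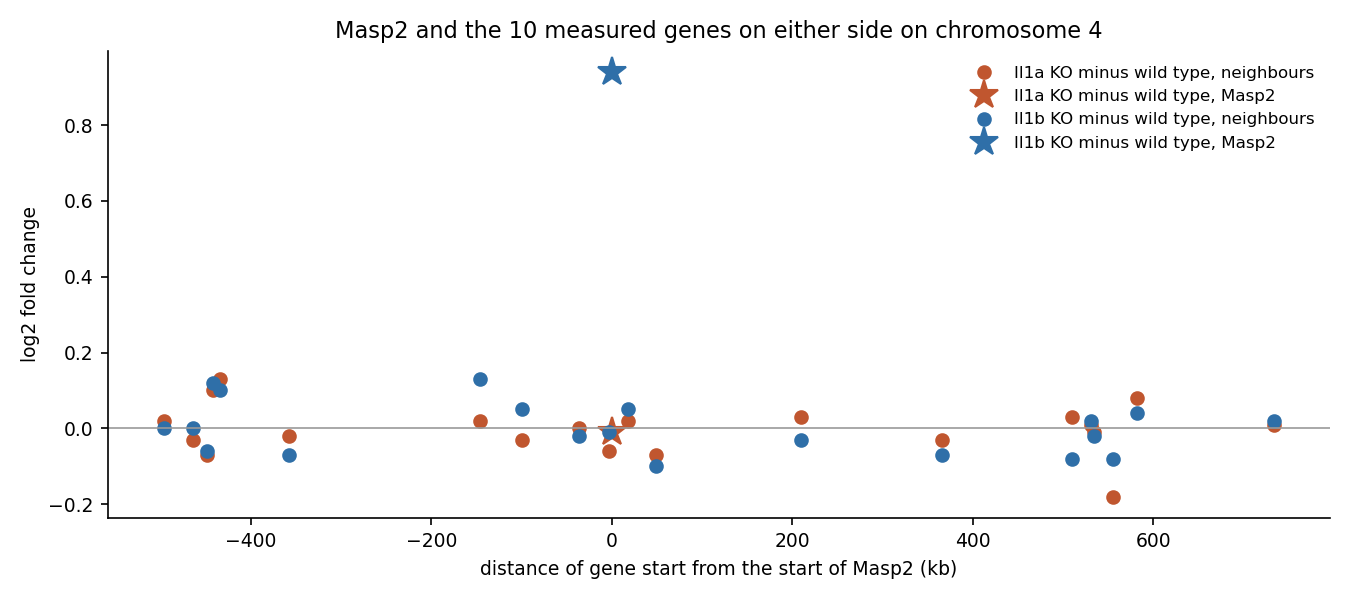
Log2 fold change (y axis) of Masp2 (stars) and of the 10 measured genes on either side of it (circles), by the distance of their starts from the start of Masp2 in kb (x axis), in the Il1a KO and the Il1b KO against wild type. The Il1b KO star stands at 0.94 and all 20 neighbours lie between -0.18 and 0.13 in both knockouts.

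The 3 genes with the highest Pearson r to Masp2 over the 12 arrays were Gdpd3 (0.992, chromosome 7), Pla2g4e (0.990, chromosome 2, as Il1b) and Mrpl20 (0.973, chromosome 4, as Masp2). Mrpl20 spans chr4:155802878-155808831, outside the stretch of neighbours described above. With genotype means removed these were 0.248, 0.201 and 0.106, so the likeness lay in the step between the Il1b KO and the other groups. The marker list of liver, where Masp2 is mainly made in the body, had 4 of 5 genes measured. Its mean level was 6.40 to 6.56 in the Il1a KO, 6.26 to 6.49 in the Il1b KO and 6.50 to 6.60 in wild type. The 4 genes were dim in these arrays, with means from 4.83 (Alb) to 7.86 (Apoa2). The part of these genes in the level of Masp2 was not tested.

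Masp1 encodes MASP-1, the protease that activates MASP-2. Its level was 8.47, 8.25, 8.34 and 8.30 in the Il1a KO, 8.26, 8.34, 8.28 and 8.24 in the Il1b KO and 8.33, 8.27, 8.18 and 8.34 in wild type. The groups overlapped, and the highest array was Il1a KO replicate 1. The log2 fold change was 0.06 (95% interval -0.05 to 0.18, limma adjusted p = 0.859) in the Il1a KO and 0.00 (-0.11 to 0.12, adjusted p = 0.986) in the Il1b KO, so the interval in the Il1b KO did not reach the change of Masp2.

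Cfb encodes factor B, the protease of the alternative pathway that amplifies cleavage of C3. Its level was 7.21, 7.21, 7.17 and 7.31 in the Il1a KO, 7.16, 7.11, 7.01 and 7.02 in the Il1b KO and 7.33, 7.28, 7.21 and 7.22 in wild type. Each Il1b KO array was below every array of the other groups, and the Il1a KO overlapped wild type. In the Il1b KO the log2 fold change was -0.19 (95% interval -0.29 to -0.08, SE 0.0479, limma adjusted p = 0.114), which did not pass over all genes, and it was -0.19 (adjusted p = 0.148) without Il1a KO replicate 1. The Il1a KO minus wild type was -0.04 (-0.14 to 0.07, adjusted p = 0.932), and the Il1a KO minus the Il1b KO was 0.15 (0.05 to 0.25, adjusted p = 0.359). In the Il1b KO all arrays lay above wild type for 1 of the 8 genes, Masp2, against 5.06% of all genes, and below it for 1, Cfb, against 1.94%. All Il1a KO arrays lay above the Il1b KO for 1 gene, Cfb, against 2.55% of all genes, and below it for 1, Masp2, against 4.69%. Between the Il1a KO and wild type the arrays overlapped for all 8 genes, where 2.87% of all genes were higher and 2.19% lower without overlap.

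C3ar1 encodes the receptor of C3a. Its level was 10.54, 10.68, 10.68 and 10.82 in the Il1a KO, 10.52, 10.64, 10.62 and 10.57 in the Il1b KO and 10.54, 10.61, 10.79 and 10.70 in wild type. The groups overlapped, and the Il1b KO arrays were the closest together. Relative to wild type the log2 fold change was 0.02 (95% interval -0.12 to 0.16, limma adjusted p = 0.987) in the Il1a KO and -0.07 (-0.21 to 0.06, adjusted p = 0.674) in the Il1b KO.

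C5ar1 encodes the receptor of C5a, which draws neutrophils to injured tissue. Its level was 9.04, 9.23, 9.13 and 9.08 in the Il1a KO, 9.11, 9.33, 9.40 and 9.27 in the Il1b KO and 9.08, 9.23, 9.42 and 9.23 in wild type. The groups overlapped, and the lowest array was Il1a KO replicate 1. The log2 fold change was -0.12 (95% interval -0.28 to 0.04, limma adjusted p = 0.750) in the Il1a KO and 0.03 (-0.13 to 0.20, adjusted p = 0.883) in the Il1b KO, and the Il1a KO minus the Il1b KO was -0.16 (-0.32 to 0.01, adjusted p = 0.670). The neutrophil marker list, all 11 genes measured, had a mean level of 7.20 to 7.53 in the Il1a KO, 7.06 to 7.77 in the Il1b KO and 7.51 to 7.88 in wild type. Counted by sign alone, 11 of its 11 genes had a negative log2 fold change against wild type in the Il1a KO (median -0.350), with no call. In the Il1b KO 9 of 11 did (median -0.250), and 1 passed as lower, where 0.813% of all genes passed in either direction. Monocyte and macrophage markers, 9 of 10 measured, had means of 8.20 to 8.48, 8.29 to 8.62 and 8.39 to 8.70 in the same order of groups. Their part in the level of C5ar1 was not tested.

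The precision of these arrays is described by the 95% intervals, which are not adjusted for the number of genes. They do not give the size of difference that the adjusted threshold could miss. Over the 8 genes in the Il1a KO, and the 7 other than Masp2 in the Il1b KO, the widest bound of any 95% interval was a 1.22-fold difference, and between the knockouts it was 1.25-fold. The median log2 fold change of the 8 genes was -0.0250 in the Il1a KO and -0.0101 in the Il1b KO, beside 0.000331 and 0.00397 over all genes. Within genotypes the pooled SD ran from 0.0544 for Masp2 to 0.117 for C5ar1, around the median of 0.0841 over all genes.

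The rest of the pathway was described from lists of 40 genes by role, of which 38 were measured. In the Il1a KO 1 of the 38 passed, and it was lower, where 0.171% of all genes passed. In the Il1b KO 3 of the 38 passed, all lower, where 0.813% of all genes did. Between the knockouts 1 passed, higher in the Il1a KO, where 0.652% of all genes did, and the counts by role below are to be read against the same shares. The median log2 fold change of the 38 was -0.0573 in the Il1a KO and -0.0511 in the Il1b KO. With array weights estimated by limma, Vtn, which encodes vitronectin, passed as higher in the Il1b KO (log2 fold change 0.30, adjusted p = 0.0280), and none of the 38 passed as higher against wild type without them.

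In the classical list none of 7 genes passed, with mean levels from percentile 10.5 (C1s1) to 89.6 (C4b) of all genes. C4b, the C4 component cleaved by C1s and MASP-2, was at -0.16 on the log2 scale in the Il1a KO (limma adjusted p = 0.357) and -0.11 in the Il1b KO (adjusted p = 0.424). C1ra, a protease of the C1 complex, was at -0.18 in both the Il1a KO and the Il1b KO (adjusted p = 0.669 and 0.445). With array weights it passed as lower in the Il1b KO (-0.28, limma adjusted p = 0.0405). Its relative C1s2 was at 0.12 in the Il1a KO and 0.22 in the Il1b KO (adjusted p = 0.853 and 0.352). C1rl was at 0.11 for the Il1a KO minus the Il1b KO (adjusted p = 0.840).

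In the lectin list, the partners that would carry MASP-2, none of 6 genes passed. Mbl2, a mannose-binding lectin, was at -0.09 in the Il1b KO (limma adjusted p = 0.504) and at 0.13 for the Il1a KO minus the Il1b KO (adjusted p = 0.575). The ficolin gene Fcna was at 0.06 in the Il1a KO and -0.08 in the Il1b KO (adjusted p = 0.917 and 0.666), and the collectin gene Colec10 was at -0.10 in the Il1a KO (adjusted p = 0.881). In the alternative pathway list only Cfp, which encodes the stabilising factor properdin, was measured, at 0.04 in the Il1a KO and 0.11 in the Il1b KO (adjusted p = 0.935 and 0.352).

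Of 7 genes of the terminal pathway, which builds the membrane attack complex, none passed. All 7 were dim, with mean levels at percentile 9.57 (C9) to 24.8 (C8g) of all genes. The lack of calls there does not show unchanged expression. C8g was at -0.07 in the Il1a KO and -0.11 in the Il1b KO (limma adjusted p = 0.796 and 0.352), C6 was at -0.09 in the Il1a KO, and C8a was at -0.11 in the Il1b KO. For the Il1a KO minus the Il1b KO, C8b was at 0.14 and C8a at 0.09 (adjusted p = 0.745 and 0.783).

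Among 6 further receptors 1 passed. Itgam, which encodes a chain of complement receptor 3 on myeloid cells, fell 1.39-fold in the Il1b KO, with levels of 9.05, 9.51, 9.53 and 9.35 against 9.73, 9.81, 9.91 and 9.88 in wild type (log2 fold change -0.48, SE 0.0966, limma adjusted p = 0.0384). The call was lost when any of 8 arrays was left out (wild type replicates 2, 3 and 4, Il1a KO replicates 2, 3 and 4, and Il1b KO replicates 1 and 4), with adjusted p between 0.0527 and 0.135. Its difference between the knockouts was 0.34 (adjusted p = 0.256). In the Il1a KO Itgam was at -0.14 (limma adjusted p = 0.797). By sign alone, the log2 fold change was negative for 9 of 11 neutrophil markers in the Il1b KO and 11 of 11 in the Il1a KO. For microglia markers it was negative in 8 of 9 and 5 of 9, in the same order. For monocyte and macrophage markers it was negative in 5 of 9 and 6 of 9. The part of these markers in the level of Itgam was not tested. Vsig4, a receptor of macrophages for C3 fragments, was at -0.40 in the Il1a KO and -0.28 in the Il1b KO (adjusted p = 0.338 and 0.371). Itgb2 encodes the other chain of complement receptor 3. It was at -0.15 in the Il1a KO and 0.06 in the Il1b KO (limma adjusted p = 0.762 and 0.812). For the Il1a KO minus the Il1b KO it was at -0.21 (adjusted p = 0.620).

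Among 11 measured inhibitors 2 passed. Cd59a, the inhibitor of the membrane attack complex, had levels of 10.86 to 11.00 in the Il1a KO, 9.57 to 9.94 in the Il1b KO and 11.47 to 11.65 in wild type, so the 3 groups did not overlap. It fell 1.52-fold in the Il1a KO and 3.33-fold in the Il1b KO (limma adjusted p = 0.00304 and 4.43e-08), and the difference between the knockouts also passed (log2 difference 1.13, adjusted p = 2.25e-06). Its neighbouring paralog Cd59b fell 1.38-fold in the Il1b KO (adjusted p = 0.0165), a call that did not hold when wild type replicate 2 (adjusted p = 0.0515) or Il1b KO replicate 4 (0.0697) was left out. The difference of Cd59b between the knockouts was 0.35 (adjusted p = 0.109), and signal shared between the 2 similar genes cannot be told apart here. Both lie on chromosome 2, as the targeted genes do, at chr2:104095753-104115410 and chr2:104069781-104085790, and the part of that position in their levels was not tested. Clu, which encodes clusterin, was at -0.08 in the Il1a KO (adjusted p = 0.628).

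**Figure D4:**
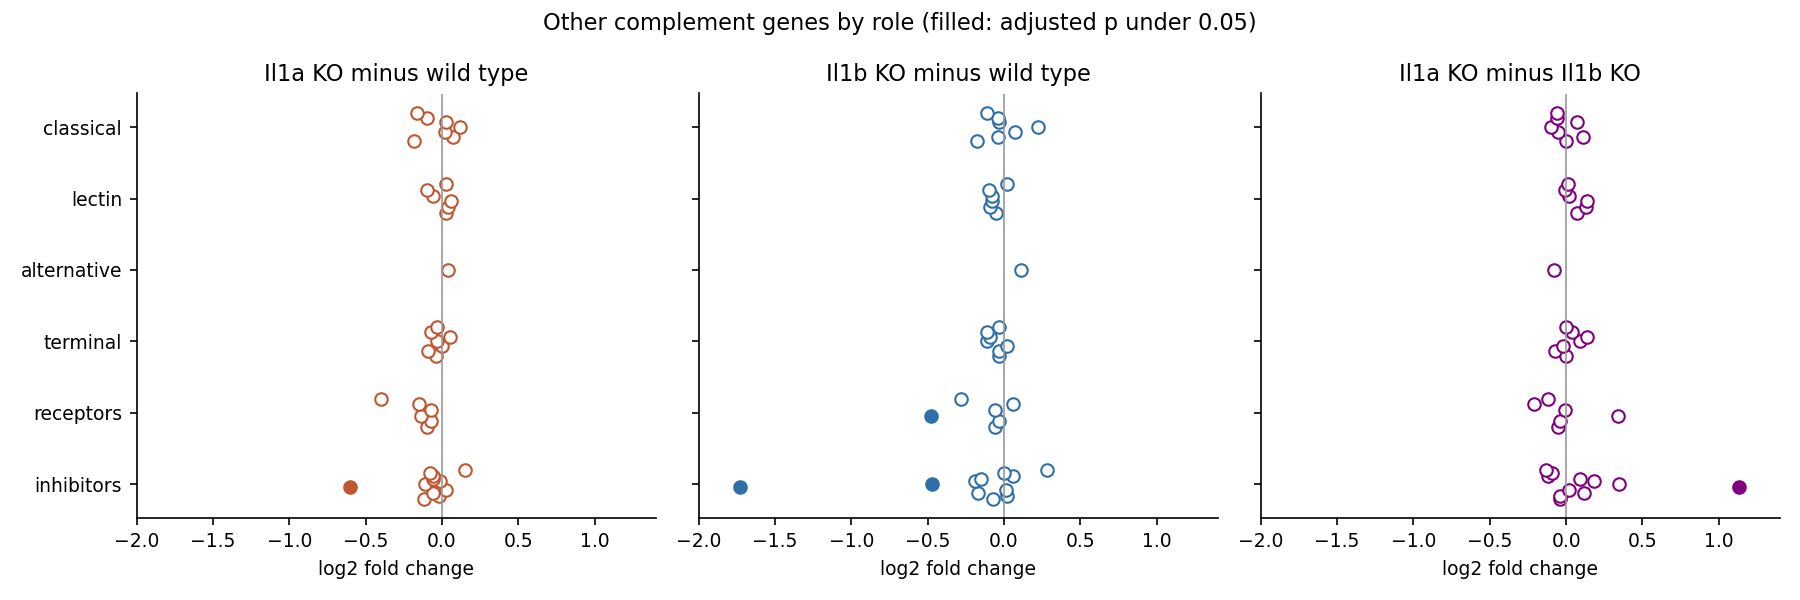
Log2 fold change (x axis) of the 38 other measured complement genes, grouped by role (y axis), with 1 panel for each knockout over wild type and 1 for the difference between the knockouts (Il1a KO minus Il1b KO); each circle is a gene and filled circles passed at an adjusted p under 0.05. The filled circles are Cd59a (-0.60) in the Il1a KO, Cd59a (-1.73), Itgam (-0.48) and Cd59b (-0.47) in the Il1b KO, and Cd59a (1.13) between the knockouts.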

How the data were processed

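The authors deposited 1 log2 intensity per probe set and array for 35557 probe sets on 12 arrays. The tools named in the submitters' processing notes are GCOS 1.4, Partek, limma and RMA, without their roles. That the deposited log2 values are RMA summaries was inferred from this and from their range (2.97 to 14.4). RMA equalises the distribution of all arrays and compresses changes of dim genes. Arrays give no counts, so their number limits the precision.

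Probe sets with exactly 1 gene symbol in the platform annotation were kept (21789), and the brightest stood for each gene, which left 19938 genes. Symbols, positions and promoter sequences came from RefSeq (GRCm38.p6), whose promoter table held 6 of the 9 genes. Group means were estimated from the 12 arrays together in limma 3.58.1 under R 4.3.3 (moderated statistics, no trend, two-sided), with Benjamini-Hochberg adjustment over all genes per contrast and 0.05 as the threshold. Pairs of genes were tested by permutation (100000 resamples, two-sided). The fit was tested on simulated data.

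Named were the 9 genes, other complement genes past the threshold, and in each contrast the 2 of each role list with the smallest p, and by likeness the 3 genes with the highest r. Srm, Tardbp, Mtor, Fbxo44, Gm572 and Pgd were named after their values were seen. The genes and lists were chosen with earlier results of these data known. Alternatives were another quantile normalization, a trended robust variance, a filter on dim genes, 2-group fits, a replicate block, all probe sets, array weights and leaving out each array. Of the 40 other complement genes listed, 38 were analysed here.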

Additional observations from a re-analysis of the deposited data

Results flagged for a closer look

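Masp2 is listed because the effects of the knockouts differed by a direct test, with a log2 difference of -0.94 for the Il1a KO minus the Il1b KO. Cd59a is listed for the same reason, with a log2 difference of 1.13. Itgam in Il1a KO replicate 1 (9.50, against 9.74 to 9.77 in the other Il1a KO arrays) stood apart from its group, with a gap of 0.867 of the group's range, above Dixon's 95% critical value for 4 samples. Chance gives such a gap in about 1 of 20 groups of 4, and 33 groups were looked at, of which 1 had it. Il1a KO replicate 1 was also the array that differed in sex-linked genes. Among the Il1a KO arrays it had the lowest marker means for neutrophils (7.20) and for monocytes and macrophages (8.20). It had the highest for microglia (8.70). The part of these in its level of Itgam was not tested.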

How the results depend on the processing

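Settings were varied in 19 ways, and the number of measured members past the threshold stayed at 0 in the Il1a KO, 1 in the Il1b KO and 1 between the knockouts in each. Masp2 kept its call, with log2 fold changes of 0.91 to 0.96 in the Il1b KO and -0.97 to -0.92 between the knockouts. Of 456 values of single members, 431 kept direction and side of the threshold and 25 changed sign, all small ones that never passed. With quantile normalization once more, Masp2 in the Il1a KO was 0.00 and in the Il1b KO C1qa was -0.01, C5ar1 0.00 and Masp1 -0.02. With array weights (2.86 for wild type replicate 4), Masp2 in the Il1a KO was 0.04, Masp1 in the Il1b KO -0.04 and C1qb between the knockouts 0.00. Leaving out 1 array gave, in the Il1a KO, -0.05 to 0.03 for C1qa, -0.03 to 0.07 for C3ar1 and -0.03 to 0.01 for Masp2. In the Il1b KO it gave -0.01 to 0.07 for C1qa, -0.07 to 0.01 for C1qb, -0.08 to 0.02 for C1qc, -0.02 to 0.09 for C5ar1 and -0.03 to 0.02 for Masp1, and between the knockouts -0.02 to 0.01 for C1qb and -0.09 to 0.00 for C1qc. Other complement genes past the threshold in the Il1b KO numbered 1 with only the 2 groups compared, 5 with array weights (Vtn as higher) and 1 to 3 with 1 array left out (1 without Il1b KO replicate 4). Between the knockouts they numbered 2 with the replicate block, 3 with array weights and 1 to 2 with 1 array left out (2 without Il1b KO replicate 3). Cd59b in the Il1b KO also lost its call with quantile normalization (adjusted p = 0.131), only the 2 groups (0.0832) and the replicate block (0.0542), and Itgam with only the 2 groups (0.105), by limma. Array weights called 1 neighbour of Masp2 in the Il1a KO and 2 in the Il1b KO. These were Pgd, lower in the Il1a KO (log2 fold change -0.22, limma adjusted p = 0.0273), and 2 genes higher in the Il1b KO. The 2 were Mtor (0.15, adjusted p = 0.0205) and Fbxo44 (0.16, adjusted p = 0.0381). Genes past the threshold in all numbered 34 in the Il1a KO, 162 in the Il1b KO and 130 between the knockouts. These became 306, 1145 and 244 with array weights, 74 and 309 in the knockouts against wild type with a trended robust variance, 15 and 85 with only the 2 groups, and with 1 array left out as few as 18 in the Il1a KO and 106 in the Il1b KO (both without wild type replicate 4), 19 in the Il1a KO without its replicate 3 or 4, and 107 without Il1b KO replicate 1. The cause was not tested. Replicate numbers did not pair the arrays (correlations of same-numbered deviations from -0.374 to 0.441), and the replicate block left 0, 1 and 1 members past the threshold. Other probe sets of a member were not tried, since each measured member had 1. With 4 arrays a group, precision is limited to the intervals given.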
